A study of Mus musculus with 12 samples.

Results

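Glycolysis enzymes and transporters are described here in mouse lung: the glucose importer Slc2a1, the enzymes Hk2, Hk3, Pfkp, Aldoa, Pgk1, Eno1, Pkm and Ldha, and the lactate exporter Slc16a3. They were chosen by symbol in the deposited table, which lists 35599 genes. All 10 symbols were found, in 11 entries of the table, because Aldoa is entered under 2 identifiers. ND-RHL mice were challenged with LPS (lipopolysaccharide from bacteria, which inflames the lung) together with BLM (bleomycin, a chemotherapy agent that causes lung scarring). They were then treated with ND-RHL, liposomes that carry nintedanib and dexamethasone and bear hyaluronic acid and RGD peptides on their surface. AE-PF mice had the same challenge and stayed untreated, as a model of acute exacerbation of pulmonary fibrosis. Saline mice were the control, without the challenge. Lungs were taken at the endpoint of the model, and each group had 4 libraries of whole-lung polyadenylated RNA. Strain, age, sex and doses are not given in the labels used here. The labels do not say that libraries of a group came from separate animals, so p-values measure the spread between these libraries, part of which may be technical.

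Glycolysis splits glucose into pyruvate and yields ATP without oxygen. Glucose enters through GLUT proteins, a hexokinase traps it inside the cell, and the steps from phosphofructokinase to pyruvate kinase turn it into pyruvate. Lactate dehydrogenase reduces pyruvate to lactate, which leaves through monocarboxylate transporters. Most steps have several isoenzymes, each made from its own gene and used in different tissues. Hypoxia-inducible factors (HIF) raise many of these genes when oxygen is low, and activated macrophages and proliferating cells are known for high glycolysis.

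The libraries held 16152379 to 21667129 gene-assigned fragments. Levels are in FPKM, fragments scaled to gene length and library total, and 14052 to 15020 genes reached 1 FPKM in a library. The alveolar type 2 cell markers were abundant, summing to 10117 to 18065 FPKM in ND-RHL, 1632 to 5279 FPKM in AE-PF and 13638 to 17208 FPKM in saline lungs. ND-RHL library 4 and AE-PF library 2 stood apart. The 12 skeletal muscle markers summed to 2006 FPKM in ND-RHL library 4 and 845 FPKM in AE-PF library 2, against 4.96 to 154 FPKM in the other 10. The 11 squamous epithelium markers summed to 6448 FPKM and 1945 FPKM in these 2 libraries, against 1.2 to 7.6 FPKM elsewhere. They are called muscle-rich, though they hold both kinds of transcript, and values without them are given for the members they touch most.

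Hypoxia-inducible factors bind DNA at the core ACGTG or GCGTG, and MYC-family and USF factors bind CACGTG, which contains ACGTG. The 250 bases before each start site in RefSeq (GRCm38.p6) were searched for ACGTG and GCGTG on both strands. These letters were found in 8 of the 10 windows at each gene's most upstream start (80%). They were in 14 of all 16 windows of the 10 genes (87.5%), some of which overlap and share matches, against 12679 of 32851 windows of all genes (38.6%) and 7340 of 13706 windows of the genes tested for expression (53.6%). The windows of these genes also held more CpG pairs, with a median of 18.5 against 6 in all windows and 14 in those of tested genes, and the motifs contain CpG. A match describes the letters only. The most upstream windows of Aldoa and Pkm held no match, and each of their windows further downstream held 1. Pkm RNA rose in AE-PF lungs, and Aldoa RNA did not pass the test. The windows of Pfkp and Slc16a3, whose RNAs did not pass the test, held 3 and 2 matches. Windows of 4 genes that hold no annotated exon are shown: those of Ldha and Pgk1, whose RNAs rose in AE-PF lungs, and those of the hexokinases Hk3, whose RNA rose there, and Hk2, whose RNA did not pass the test. Each window runs 5′ to 3′ on the gene's own strand, and capitals mark the matches, with CACGT and CACGC being the motifs read on the opposite strand.
Ldha (chr7:46845554-46845803, plus strand): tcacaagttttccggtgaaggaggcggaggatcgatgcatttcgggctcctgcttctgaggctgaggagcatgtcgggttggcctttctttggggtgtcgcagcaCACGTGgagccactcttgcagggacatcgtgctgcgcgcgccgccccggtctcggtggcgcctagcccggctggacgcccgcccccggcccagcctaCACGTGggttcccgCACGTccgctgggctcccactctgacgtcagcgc
Pgk1 (chrX:106186850-106187099, plus strand): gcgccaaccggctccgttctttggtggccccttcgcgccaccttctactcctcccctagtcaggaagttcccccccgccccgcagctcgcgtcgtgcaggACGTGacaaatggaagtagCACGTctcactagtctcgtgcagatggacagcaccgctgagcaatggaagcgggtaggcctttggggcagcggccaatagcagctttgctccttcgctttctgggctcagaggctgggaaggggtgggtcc
Hk3 (chr13:55021386-55021635, minus strand): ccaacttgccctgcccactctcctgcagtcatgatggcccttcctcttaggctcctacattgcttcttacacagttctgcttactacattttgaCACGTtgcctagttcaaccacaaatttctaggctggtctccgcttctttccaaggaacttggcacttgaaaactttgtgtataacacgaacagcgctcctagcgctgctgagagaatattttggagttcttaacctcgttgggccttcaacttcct
Hk2 (chr6:82774455-82774704, minus strand): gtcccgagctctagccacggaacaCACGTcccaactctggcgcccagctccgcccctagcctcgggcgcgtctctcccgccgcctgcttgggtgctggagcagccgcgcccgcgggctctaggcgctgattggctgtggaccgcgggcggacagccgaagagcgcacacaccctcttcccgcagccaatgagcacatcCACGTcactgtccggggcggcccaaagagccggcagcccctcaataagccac
The Ldha window held 5 matches in 3 separate stretches, 34 to 145 bases before the start, and 2 of the stretches were complete CACGTG boxes. This window lies inside the annotated span of Ldha, which begins earlier with another transcript. The Pgk1 window held 2 matches, 131 and 150 bases before the start. Hk3 had 1 match, 156 bases before the start, and Hk2 had 2, at 52 and 226 bases, so both hexokinase windows held the letters.

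Between AE-PF and saline lungs, 6 of the 11 entries passed the test as higher (54.5%) and 0 as lower. The background was 26.4% of the 15164 genes tested higher and 30.2% lower. The 6 were the importer Slc2a1, the hexokinase Hk3 and the lower part of the pathway, Pgk1, Eno1, Pkm and Ldha. Hk2, Pfkp, Aldoa and Slc16a3 did not pass. The median change of the 11 entries was 0.52 on the log2(FPKM + 1) scale, against -0.03 over all genes tested. The genes were chosen with results of these data known, so the count describes them and is no test of the pathway.

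Between ND-RHL and AE-PF lungs, 6 of 11 entries passed as lower (54.5%) and 0 as higher. The background was 17.4% of genes tested lower and 24.3% higher. Slc2a1, Hk3, Pgk1, Eno1, Pkm and Ldha fell, and the median over the 11 entries was -0.41, against 0.06 over all genes. Both comparisons use the same AE-PF libraries, so their values are given side by side and an opposite direction in them is not independent support. Between ND-RHL and saline lungs, limma called 0 of 11 entries, and limma-voom on fragments also called 0. The background was 13.3% of genes higher and 8.65% lower. At an unadjusted p under 0.05 there was 1 entry, Eno1, against 5459 of all 15164 genes (36.0%). The medians were 0.12 over the 11 entries and 0.03 over all genes. In whole-lung RNA, more cells of a type and more RNA per cell cannot be told apart.

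**Figure D1:**
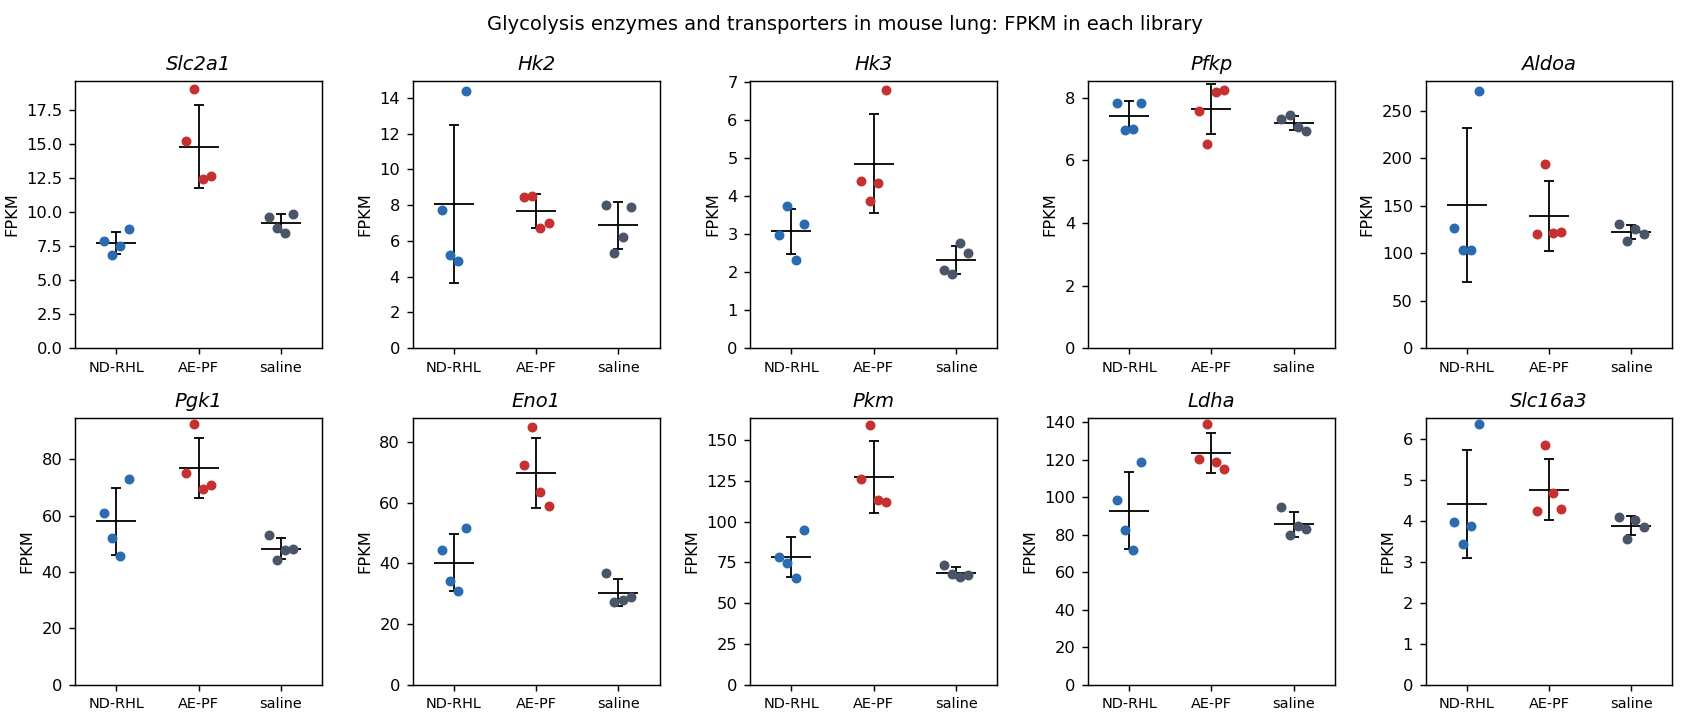
FPKM of each of the 10 genes in the 12 libraries (points), with the group mean (long bar) and SD (error bar), by group on the x axis; Aldoa is its main entry. The AE-PF points lie above all saline points for Slc2a1, Hk3, Pgk1, Eno1, Pkm, Ldha and Slc16a3. How many of all genes separate in this way was not counted. In that comparison 61.4% of all genes tested had an unadjusted limma p under 0.05. A single high ND-RHL library is seen for Aldoa (271 FPKM) and Hk2 (14.4 FPKM).

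**Figure D2:**
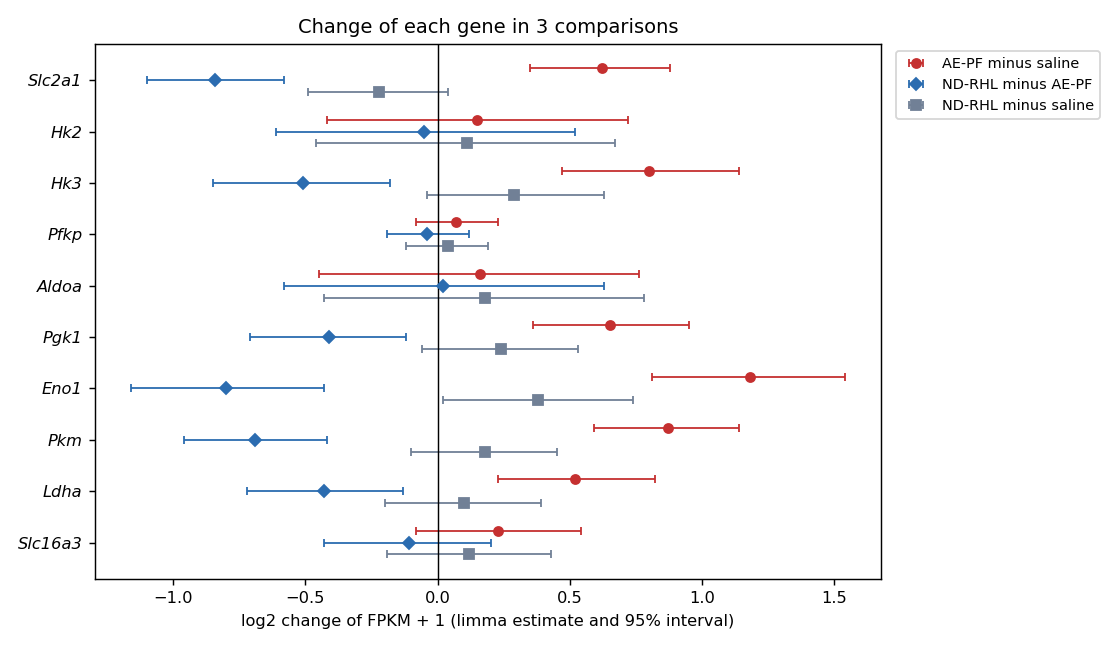
Change of each gene in log2(FPKM + 1) on the x axis, as the limma estimate with its 95% interval, in 3 comparisons. Eno1 had an AE-PF minus saline change of 1.18 and an ND-RHL minus AE-PF change of -0.80, while all 3 intervals of Hk2, Pfkp, Aldoa and Slc16a3 include 0.

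Slc2a1 (ENSMUSG00000028645, chr4:119108711-119137983, plus strand) encodes GLUT1, the basal glucose importer of many cell types. Its level was 7.83, 6.83, 7.5 and 8.77 FPKM in ND-RHL lungs, 15.2, 19, 12.4 and 12.6 FPKM in AE-PF lungs, and 9.62, 8.82, 8.45 and 9.84 FPKM in saline lungs. All 4 AE-PF libraries lay above the other 8, and ND-RHL and saline values overlapped at ND-RHL library 4 and saline library 3. The change was 0.62 ± 0.12 (SE) in log2(FPKM + 1) for AE-PF minus saline (limma, adjusted p = 0.00112). For ND-RHL minus AE-PF it was -0.84 ± 0.12 (adjusted p = 0.000372). The group means were 7.73 ± 0.807 FPKM in ND-RHL, 14.8 ± 3.07 FPKM in AE-PF and 9.18 ± 0.657 FPKM in saline (SD, n = 4 each). Slc2a1 had the lowest ND-RHL minus saline change of the 11 entries, -0.22, which did not pass (adjusted p = 0.203). Over 21 alternatives its adjusted p for ND-RHL minus saline ran from 0.0331 to 0.389. It passed under 2 of them, array weights (-0.26) and without both muscle-rich libraries (-0.28). Slc2a1 was lower in the ND-RHL library in all 4 pairs of equally numbered ND-RHL and saline libraries. No label says what a number marks, so this is a description and not a paired test.

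Slc2a3, which encodes GLUT3, an importer of neurons and leukocytes, did not follow Slc2a1. It averaged 3.3 ± 0.319 FPKM in ND-RHL, 2.17 ± 0.24 FPKM in AE-PF and 2.69 ± 0.741 FPKM in saline lungs (SD, n = 4 each). It rose in ND-RHL against AE-PF lungs, by 0.44 in log2(FPKM + 1) (limma, adjusted p = 0.0185), and the AE-PF minus saline change was -0.20 (adjusted p = 0.211). The log2 ratio of Slc2a1 to Slc2a3 within a library does not depend on how libraries are scaled, apart from the pseudocount. It was 1.12, 0.98, 0.92 and 1.08 in ND-RHL lungs, 2.43, 2.51, 2.09 and 2.16 in AE-PF lungs, and 1.72, 1.76, 1.18 and 1.28 in saline lungs. The 3 groups did not overlap, with AE-PF highest and ND-RHL lowest. Each of the 3 differences (0.81 for AE-PF minus saline, -1.28 for ND-RHL minus AE-PF, -0.46 for ND-RHL minus saline) had an exact permutation p of 0.0286, the smallest that 4 against 4 libraries allow. The adjusted p over 27 ratio tests was 0.11. Of those 27 tests, 7 had an exact permutation p under 0.05 and 0 passed after adjustment, which would have needed at least 16 tests at the smallest possible p.

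The hexokinases phosphorylate glucose on entry. Hk3 (ENSMUSG00000025877, chr13:55005985-55021385, minus strand), the hexokinase of myeloid cells, was the least abundant member in ND-RHL and saline lungs. It had 2.97, 3.73, 2.31 and 3.26 FPKM in ND-RHL lungs, 4.4, 3.88, 4.35 and 6.78 FPKM in AE-PF lungs, and 2.06, 1.95, 2.76 and 2.49 FPKM in saline lungs. Every AE-PF library exceeded every library of the other 2 groups, by a narrow margin over ND-RHL library 2. Hk3 rose by 0.80 ± 0.15 (SE) for AE-PF minus saline (limma, adjusted p = 0.000998) and changed by -0.51 ± 0.15 for ND-RHL minus AE-PF (adjusted p = 0.0199). The ND-RHL minus AE-PF call was lost without ND-RHL library 3 (-0.42, adjusted p = 0.0594), and the adjusted p over its alternatives ran from 0.00759 to 0.0594. Hk3 rests on 133 to 452 fragments a library, the fewest of the 10 genes apart from the minor Aldoa entry. It overlaps Unc5a on the opposite strand, which reached 2.2 FPKM. Whether the counting used strand is not given in the sources.

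Hk2 (ENSMUSG00000000628, chr6:82725025-82774454, minus strand), the insulin-responsive hexokinase of muscle and of many proliferating cells, passed in no comparison. It had 7.71, 5.23, 4.86 and 14.4 FPKM in ND-RHL lungs, 8.45, 8.52, 6.74 and 6.98 FPKM in AE-PF lungs, and 8.01, 5.32, 6.23 and 7.89 FPKM in saline lungs. The 3 groups overlapped, and muscle-rich ND-RHL library 4 was the highest of all 12. The changes were 0.15 for AE-PF minus saline (95% interval -0.42 to 0.72) and -0.05 for ND-RHL minus AE-PF (-0.61 to 0.52), with limma adjusted p of 0.639 and 0.901. Without both muscle-rich libraries these changes were 0.10 and -0.29 (adjusted p = 0.611 and 0.214), and ND-RHL minus saline turned from 0.11 to -0.19 (adjusted p = 0.801 and 0.44). The AE-PF minus saline interval of Hk2 contains the change of Slc2a1 in that comparison (0.62). Its ND-RHL minus AE-PF interval does not contain that of Slc2a1 (-0.84). Hk1, the widespread hexokinase, was the most abundant of the 3, with 12.6 ± 0.92 FPKM in ND-RHL, 12.9 ± 0.292 FPKM in AE-PF and 11.7 ± 0.688 FPKM in saline lungs (SD, n = 4 each), and passed in no comparison. The log2 ratio of Hk3 to Hk1 was -1.27 ± 0.29 in AE-PF lungs and -1.94 ± 0.24 in saline lungs (SD), a difference of 0.67 with no overlap (exact permutation p = 0.0286, adjusted p = 0.11). The ratio of Hk2 to Hk1 differed by 0.02 between the same groups (exact permutation p = 0.971).

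Pfkp (ENSMUSG00000021196, chr13:6579768-6648777, minus strand), the platelet-type phosphofructokinase of the committed step, varied least of the 11 entries over the 12 libraries, by 0.089 (root mean square) around its own mean in log2(FPKM + 1). It averaged 7.41 ± 0.498 FPKM in ND-RHL, 7.65 ± 0.801 FPKM in AE-PF and 7.19 ± 0.229 FPKM in saline lungs (SD, n = 4 each). All 12 libraries lay between 6.54 and 8.27 FPKM. The AE-PF minus saline change was 0.07 (95% interval -0.08 to 0.23, limma adjusted p = 0.39). It passed as higher with equal FPKM totals (0.19, adjusted p = 0.0427) and with array weights (0.14, adjusted p = 0.0178), within a range of 0.0178 to 0.683 over 21 alternatives. Pfkl, the liver-type isoenzyme, averaged 10.3 ± 1.43 FPKM in ND-RHL, 13 ± 1.17 FPKM in AE-PF and 10.7 ± 1.44 FPKM in saline lungs, and fell in ND-RHL against AE-PF by 0.32 on the log2 scale (adjusted p = 0.0354). Pfkp overlaps Pitrm1 on the opposite strand, which reached 10.1 FPKM.

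Aldoa (ENSMUSG00000030695, chr7:126795234-126800751, minus strand), aldolase A, splits fructose bisphosphate and is the aldolase of muscle and red blood cells. Its level was 126, 103, 103 and 271 FPKM in ND-RHL lungs, 119.6, 194, 121 and 122 FPKM in AE-PF lungs, and 131, 113, 125 and 119.6 FPKM in saline lungs. The 2 highest values are those of the 2 muscle-rich libraries, and the other 10 lay between 103 and 131 FPKM. The changes were 0.16 for AE-PF minus saline (95% interval -0.45 to 0.76) and 0.02 for ND-RHL minus AE-PF (-0.58 to 0.63), with limma adjusted p of 0.65 and 0.959. Without both muscle-rich libraries they were -0.01 and -0.13 (adjusted p = 0.888 and 0.249). The part of muscle or squamous RNA in these values was not tested beyond leaving out the libraries. The other entry of Aldoa (ENSMUSG00000114515, chr7:126800790-126809108, minus strand) held 7 to 23 fragments and 0.484 to 1.65 FPKM a library and passed in no comparison. Aldoc, the aldolase of brain, stood at 1.59 to 3.06 FPKM.

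**Figure D3:**
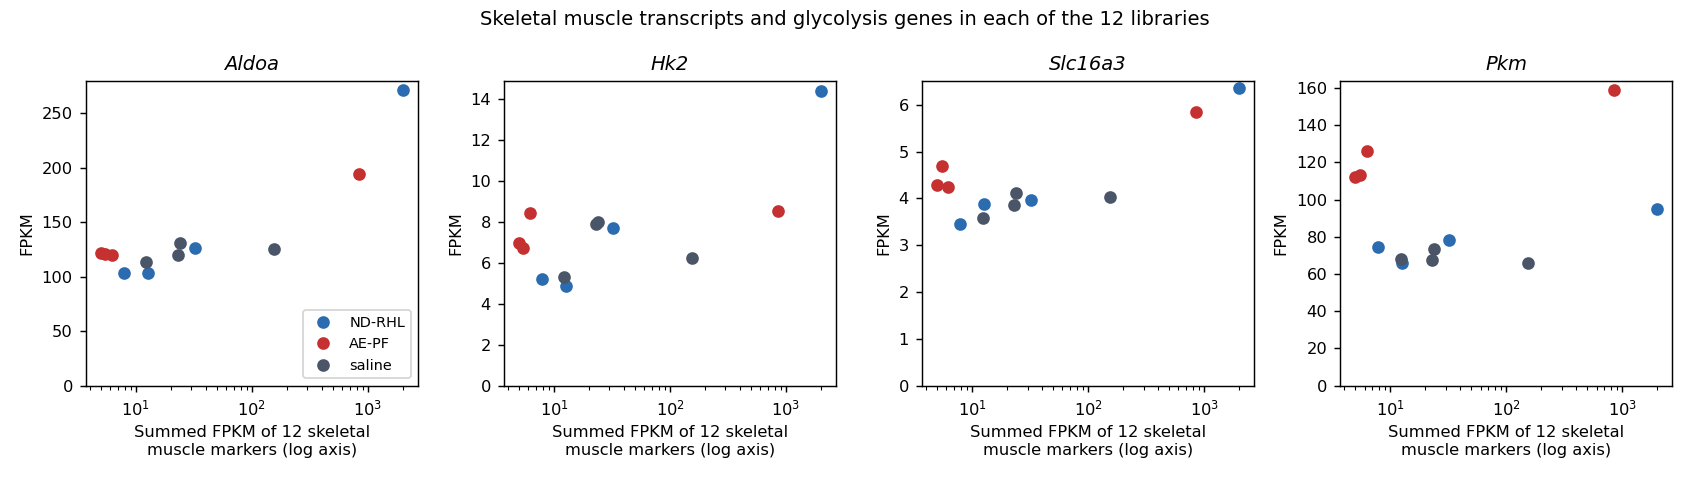
FPKM of Aldoa, Hk2, Slc16a3 and Pkm (y axes, linear) against the summed FPKM of 12 skeletal muscle markers (x axes, logarithmic) in each of the 12 libraries. The points at 845 (AE-PF library 2) and 2006 (ND-RHL library 4) also have the highest squamous marker sums and hold the 2 highest values of Aldoa and Slc16a3, while for Pkm the 4 AE-PF libraries lie above all others.

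The 4 members from phosphoglycerate kinase to lactate dehydrogenase rose in AE-PF against saline lungs. Pgk1 (ENSMUSG00000062070, chrX:106187100-106203699, plus strand), phosphoglycerate kinase, makes the pathway's first ATP and had 61, 52.1, 45.8 and 73.1 FPKM in ND-RHL lungs, 75.2, 92.4, 69.4 and 70.8 FPKM in AE-PF lungs, and 53.1, 44.4, 47.9 and 48.1 FPKM in saline lungs. AE-PF and saline did not overlap, whereas muscle-rich ND-RHL library 4 reached into the AE-PF range. The change was 0.65 ± 0.13 (SE) for AE-PF minus saline (limma, adjusted p = 0.00171) and -0.41 ± 0.13 for ND-RHL minus AE-PF (adjusted p = 0.0294). The second call held in 16 of 21 alternatives, with an adjusted p from 0.00517 to 0.082. Alternatives without a saline library cannot move this estimate, so they bear only on its spread. It was lost with no filter (0.0622) and without ND-RHL library 2 (0.0717), ND-RHL library 3 (0.082), AE-PF library 1 (0.0586) or AE-PF library 2 (0.0775). Without both muscle-rich libraries it was -0.44 (adjusted p = 0.00716).

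Eno1 (ENSMUSG00000063524, chr4:150236721-150248879, plus strand), alpha-enolase, makes phosphoenolpyruvate and had the largest AE-PF minus saline change of the 11 entries. It stood at 44.4, 34.3, 31 and 51.6 FPKM in ND-RHL lungs, 72.4, 85.1, 63.6 and 58.8 FPKM in AE-PF lungs, and 36.9, 27.3, 28 and 29.1 FPKM in saline lungs. All AE-PF libraries exceeded the other 8, and ND-RHL and saline libraries overlapped. The AE-PF minus saline change was 1.18 ± 0.17 (SE), a 2.26-fold difference in FPKM + 1 (limma, adjusted p = 0.000135). The ND-RHL minus AE-PF change was -0.80 ± 0.17 (adjusted p = 0.00325). The ND-RHL minus saline change was 0.38, with a 95% interval of 0.02 to 0.74, and did not pass (adjusted p = 0.124). Eno1 was higher in the ND-RHL library in all 4 pairs of equally numbered ND-RHL and saline libraries. What a number marks is not given, so this too is a description and not a paired test. Eno3, the enolase of muscle, was at 21.1, 11.8, 16.4 and 127 FPKM in ND-RHL lungs, 5.34, 30.4, 8.02 and 6.48 FPKM in AE-PF lungs, and 19.2, 15.6, 21.1 and 20.7 FPKM in saline lungs. Both muscle-rich libraries held the highest Eno3 of their group. The log2 ratio of Eno1 to Eno3 averaged 2.71 ± 0.88 in AE-PF and 0.64 ± 0.24 in saline lungs (SD), without overlap (exact permutation p = 0.0286, adjusted p = 0.11). In ND-RHL lungs the ratio averaged 0.53 ± 1.23 (SD) and overlapped with that of AE-PF lungs (exact permutation p = 0.0571, adjusted p = 0.14). The near copy Eno1b stood at 0.891 to 3.98 FPKM. The sources used do not give how multi-mapping reads were treated.

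Pkm (ENSMUSG00000032294, chr9:59656368-59679375, plus strand), the pyruvate kinase of most tissues outside liver and red blood cells, makes pyruvate and ATP. It had 78.3, 74.6, 65.7 and 94.8 FPKM in ND-RHL lungs, 126, 159, 113 and 112 FPKM in AE-PF lungs, and 73.5, 67.8, 66 and 67.5 FPKM in saline lungs. The AE-PF libraries lay above all others, and the saline libraries were the tightest group. Pkm rose by 0.87 ± 0.12 (SE) for AE-PF minus saline, a 1.82-fold difference in FPKM + 1 (limma, adjusted p = 0.000155). It changed by -0.69 ± 0.12 for ND-RHL minus AE-PF (adjusted p = 0.00149). Both calls held in all 21 alternatives, as did those of Eno1 and Slc2a1. The table's value pools the splice forms of Pkm, M1 and M2, which gene-level values cannot separate.

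Ldha (ENSMUSG00000063229, chr7:46841475-46855627, plus strand) encodes the lactate dehydrogenase subunit that favours lactate formation. Its level was 98.3, 82.4, 71.8 and 119 FPKM in ND-RHL lungs, 120.5, 139, 119 and 115 FPKM in AE-PF lungs, and 94.7, 79.6, 84.8 and 83 FPKM in saline lungs. AE-PF exceeded saline in every library, and muscle-rich ND-RHL library 4 lay within the AE-PF range. The change was 0.52 ± 0.13 (SE) for AE-PF minus saline (limma, adjusted p = 0.0062) and -0.43 ± 0.13 for ND-RHL minus AE-PF (adjusted p = 0.0251). The second call held in 16 of 21 alternatives, with an adjusted p from 0.00272 to 0.0656. Here too, leaving out a saline library cannot move the estimate and bears only on its spread. It was lost with no filter (0.0547) and without ND-RHL library 2 (0.064), ND-RHL library 3 (0.0656), AE-PF library 1 (0.0505) or AE-PF library 2 (0.0647). Without both muscle-rich libraries it was -0.50 (adjusted p = 0.0054).

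Ldhb encodes the subunit that favours lactate use, as in heart, and moved the other way. Its level was 92, 74.6, 85.8 and 66.9 FPKM in ND-RHL lungs, 34.4, 29.2, 36.8 and 37.5 FPKM in AE-PF lungs, and 117, 118, 101 and 98.4 FPKM in saline lungs. The 3 groups did not overlap. Ldhb fell by 1.63 on the log2 scale for AE-PF minus saline (limma, adjusted p = 1.89e-06), rose by 1.18 for ND-RHL minus AE-PF (adjusted p = 3.94e-05) and fell by 0.45 for ND-RHL minus saline (adjusted p = 0.017). The log2 ratio of Ldha to Ldhb was 0.20 ± 0.45 in ND-RHL, 1.81 ± 0.28 in AE-PF and -0.34 ± 0.15 in saline lungs (SD, n = 4 each). It was above 0 in all 4 AE-PF libraries and below 0 in all 4 saline libraries. The difference was 2.15 for AE-PF minus saline and -1.61 for ND-RHL minus AE-PF, both without overlap (exact permutation p = 0.0286, adjusted p = 0.11). For ND-RHL minus saline it was 0.54 (exact permutation p = 0.0857), and the highest ND-RHL ratio, 0.83, came from muscle-rich library 4. The 9 cardiac muscle markers moved with Ldhb: all 9 fell in AE-PF against saline lungs and 7 of 9 rose in ND-RHL against AE-PF lungs. This direction was not particular to them. All 8 alveolar type 2 and all 6 club and ciliated markers fell and rose in these comparisons, and 6 of 7 endothelial markers fell and 6 of 7 rose. The cardiac markers summed to 151 to 776 FPKM in ND-RHL, 33.8 to 65.3 FPKM in AE-PF and 364 to 647 FPKM in saline lungs. The part of any of these cell types in the Ldhb values was not tested.

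Slc16a3 (ENSMUSG00000025161, chr11:120948480-120960868, plus strand) encodes MCT4, the lactate exporter of glycolytic cells. It had 3.97, 3.45, 3.87 and 6.36 FPKM in ND-RHL lungs, 4.25, 5.85, 4.69 and 4.29 FPKM in AE-PF lungs, and 4.11, 3.57, 4.02 and 3.85 FPKM in saline lungs. AE-PF libraries lay just above all saline libraries, and the 2 muscle-rich libraries were the highest of the 12. The changes were 0.23 for AE-PF minus saline (95% interval -0.08 to 0.54) and -0.11 for ND-RHL minus AE-PF (-0.43 to 0.20), with limma adjusted p of 0.185 and 0.548. Without ND-RHL library 4, both comparisons passed, at 0.23 (adjusted p = 0.0401) and -0.27 (adjusted p = 0.0395). Leaving out an ND-RHL library cannot move the AE-PF minus saline estimate and bears only on its spread. Without both muscle-rich libraries neither passed, at 0.15 (adjusted p = 0.0717) and -0.19 (adjusted p = 0.0525). The adjusted p over 20 alternatives ran from 0.0401 to 0.408 and from 0.0395 to 0.895. Slc16a1, which encodes MCT1, the widespread transporter, had 8.86 ± 2.01 FPKM in ND-RHL, 12.5 ± 1.22 FPKM in AE-PF and 7.4 ± 1.48 FPKM in saline lungs (SD, n = 4 each). Slc16a1 rose by 0.70 for AE-PF minus saline (adjusted p = 0.00277) and changed by -0.47 for ND-RHL minus AE-PF (adjusted p = 0.0311).

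**Figure D4:**
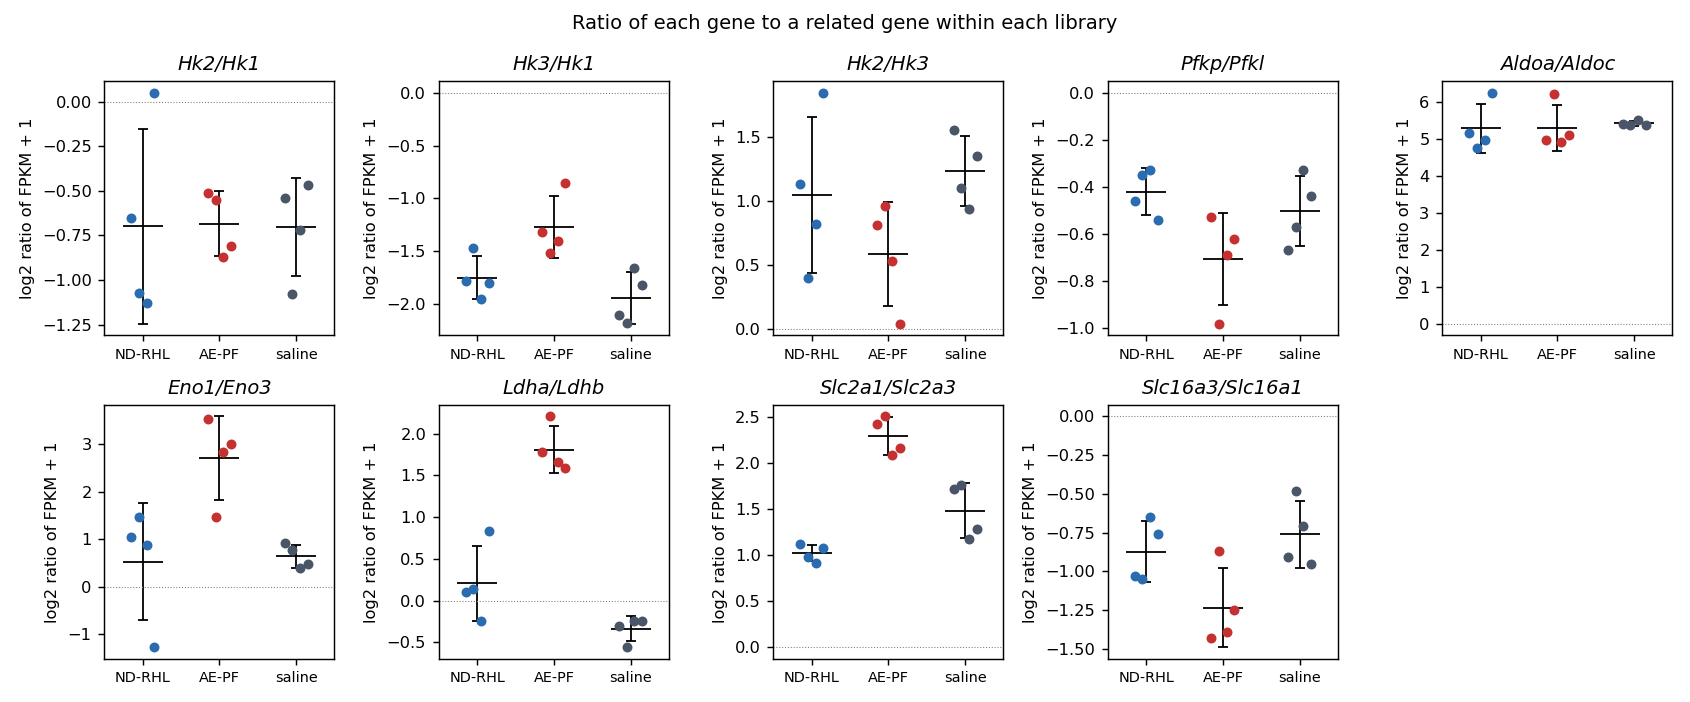
Log2 ratio of FPKM + 1 between a gene and a related gene within each library (points), with the group mean and SD, for 9 pairs. The Ldha to Ldhb ratio lies above 0 in the 4 AE-PF libraries and below 0 in the 4 saline libraries, and the Slc2a1 to Slc2a3 ratio separates all 3 groups.

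Levels per gene length spanned from Aldoa to Hk3. In saline lungs the order of the mean FPKM was Aldoa (122), Ldha (85.5), Pkm (68.7), Pgk1 (48.4), Eno1 (30.3), Slc2a1 (9.18), Pfkp (7.19), Hk2 (6.86), Slc16a3 (3.89) and Hk3 (2.31). Among neighbours in that order, only Pfkp and Hk2 overlapped in their libraries. In AE-PF lungs Pkm (127) stood above Ldha (123), and both overlapped with Aldoa (139). Overlap was also seen there between Pgk1 (76.9) and Eno1, and between neighbours from Hk2 (7.67) down to Slc16a3 (4.77). In ND-RHL lungs the order of the 5 most abundant genes was that of saline, with Aldoa at 151, Ldha at 92.9, Pkm at 78.4, Pgk1 at 58 and Eno1 at 40.3 FPKM, and neighbours among these 5 overlapped. Among the 11 entries, ND-RHL library 4 was the highest of its group in 10, AE-PF library 2 in 9 and saline library 1 in 8.

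For 9 of the 10 genes, the gene outside the set with the closest profile over the 12 libraries was sought, by the root mean square (RMS) difference of log2(FPKM + 1) centred on each gene's mean. Pkm was closest to Smyd2 (RMS 0.092), Eno1 to Maf (0.121), Pgk1 to Prdx5 (0.084) and Ldha to Rpl15-ps3 (0.079). Slc2a1 was closest to Gnl3 (0.079). Maf stood at 5.68 ± 0.993 FPKM in ND-RHL, 10.2 ± 2.18 FPKM in AE-PF and 3.97 ± 0.306 FPKM in saline lungs (SD, n = 4 each). Aldoa was closest to Ide (0.118), which also peaked in the muscle-rich libraries, at 28.2 FPKM in ND-RHL library 4 and 22.6 FPKM in AE-PF library 2. Hk2 was closest to Dhrs9 (0.122), Pfkp to Elp5 (0.055) and Slc16a3 to 0610012G03Rik (0.082). Likeness here is a description of 12 libraries that share their groups.

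Of 21 other glycolysis enzyme genes, 17 were tested. In AE-PF against saline lungs 6 rose and 3 fell, and in ND-RHL against AE-PF lungs 3 rose and 4 fell. Over all genes tested, 26.4% rose and 30.2% fell in the first comparison, and 24.3% rose and 17.4% fell in the second. These shares apply to the lists below as well, and no list count was tested against them. The median changes of the 17 were 0.27 and 0.00. Pgam1, phosphoglycerate mutase, the step between Pgk1 and Eno1, had 43.6, 45.3, 36.2 and 50.2 FPKM in ND-RHL lungs, 67.3, 71.5, 62.5 and 62.8 FPKM in AE-PF lungs, and 42.1, 36.8, 35.1 and 37.8 FPKM in saline lungs. Its AE-PF libraries stood clear of the rest, with changes of 0.78 for AE-PF minus saline (limma, adjusted p = 4.25e-05) and -0.59 for ND-RHL minus AE-PF (adjusted p = 0.000691). Of 4 further enzymes, named after their values were seen, Gapdh rose by 0.88 in AE-PF against saline lungs (adjusted p = 0.00448), but its level was low, at 15.4 ± 2.35 FPKM in AE-PF and 7.83 ± 0.708 FPKM in saline lungs (SD, n = 4 each). Gapdh has many processed copies, so its level is uncertain. Gpi1, which acts between hexokinase and phosphofructokinase, rose by 0.31 (adjusted p = 0.0137). In ND-RHL against AE-PF lungs neither Gapdh (-0.34, adjusted p = 0.221) nor Gpi1 (-0.21, adjusted p = 0.0851) passed. The hexokinase-like gene Hkdc1 fell by 1.08 in AE-PF against saline lungs (adjusted p = 0.000101) and rose by 0.86 in ND-RHL against AE-PF lungs (adjusted p = 0.00102). Gapdhs fell by 0.51 (adjusted p = 0.00731) and rose by 0.41 (adjusted p = 0.0289) in these comparisons.

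**Figure D5:**
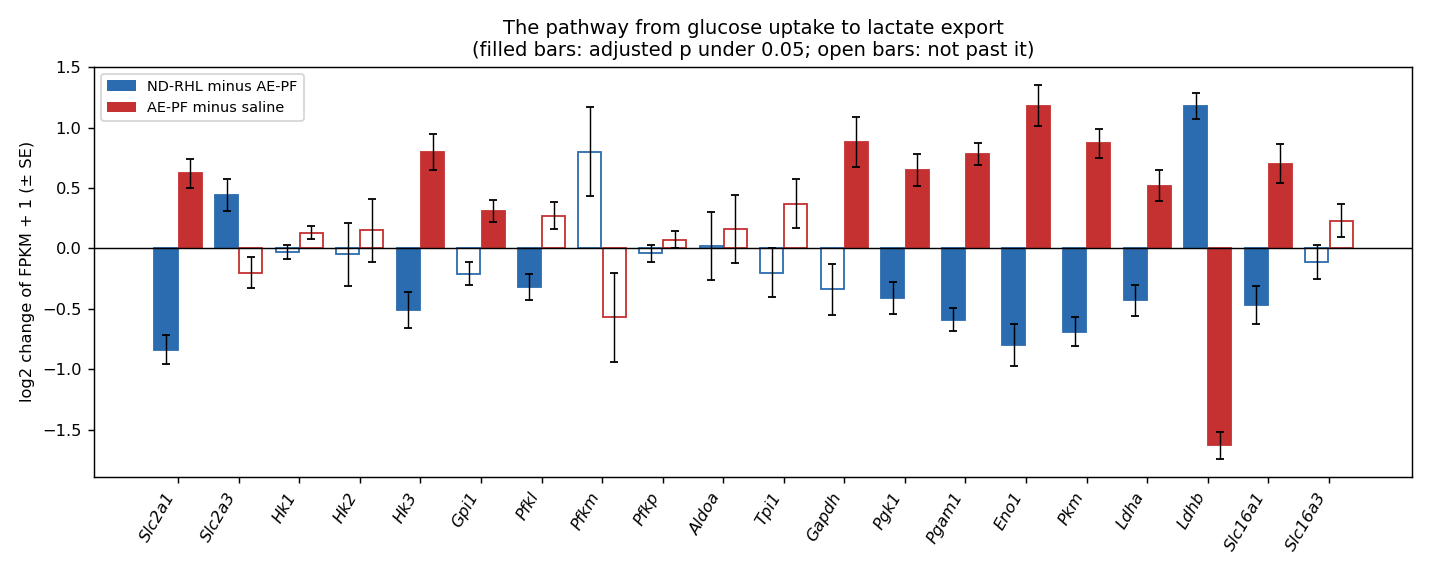
Change in log2(FPKM + 1) with its SE for 20 genes from glucose uptake to lactate export, ND-RHL minus AE-PF left of AE-PF minus saline; filled bars passed the limma test. Pgk1, Pgam1, Eno1, Pkm and Ldha have filled bars above 0 for AE-PF minus saline and below 0 for ND-RHL minus AE-PF, and Ldhb has the opposite signs.

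Of 16 other genes of glucose and lactate transport, 12 were tested, and 3 rose and 4 fell in AE-PF against saline lungs. In ND-RHL against AE-PF lungs 5 rose and 2 fell. These counts include Bsg and Emb, which encode partner proteins of lactate transporters and not transporters. Both fell in the first comparison (-0.22 and -0.51) and rose in the second (0.23 and 0.50). The shares over all genes were 26.4% higher and 30.2% lower, then 24.3% and 17.4%. Slc2a9, which encodes the urate transporter GLUT9, rose by 0.55 in AE-PF against saline lungs (limma, adjusted p = 0.000202). Slc16a7, which encodes MCT2, a high-affinity importer, changed by -0.69 there (adjusted p = 0.000513) and rose by 0.69 in ND-RHL against AE-PF lungs (adjusted p = 0.00108). Slc2a10 changed by -0.46 in the same comparison (adjusted p = 0.00107).

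Of 10 regulators of glycolysis, 8 were tested; 2 rose and 3 fell in AE-PF against saline lungs, and 3 rose and 1 fell in ND-RHL against AE-PF lungs. Prkaa2, a catalytic subunit of the energy sensor AMPK, changed by -0.61 (limma, adjusted p = 0.000483) and 0.72 (adjusted p = 0.000428) in these comparisons. Pfkfb2, which makes the activator of phosphofructokinase, changed by -0.51 (adjusted p = 0.00135) and 0.67 (adjusted p = 0.000523). Among 8 tested genes of the HIF pathway, 2 rose and 3 fell in AE-PF against saline lungs, and 3 rose and 1 fell in ND-RHL against AE-PF lungs. For both lists the AE-PF against saline counts are near the shares over all genes, 26.4% higher and 30.2% lower. In ND-RHL against AE-PF lungs these shares were 24.3% and 17.4%. Of the oxygen-regulated HIF alpha subunits, Hif1a and Epas1 moved in opposite directions. Hif1a had 15 ± 0.915 FPKM in ND-RHL, 25.8 ± 1.62 FPKM in AE-PF and 12.6 ± 1.16 FPKM in saline lungs (SD, n = 4 each), with changes of 0.98 (adjusted p = 2.14e-06) and -0.74 (adjusted p = 3.89e-05). Epas1, which encodes HIF-2 alpha and is abundant in lung endothelium, had 450.2 ± 82.6 FPKM in ND-RHL, 264 ± 35.5 FPKM in AE-PF and 570.0 ± 26.5 FPKM in saline lungs, with changes of -1.12 (adjusted p = 4.76e-05) and 0.76 (adjusted p = 0.00136). Hif3a was too low to be tested, with 0.266 to 0.516 FPKM in ND-RHL, 0.568 to 3.73 FPKM in AE-PF and 0.217 to 0.346 FPKM in saline lungs.

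Of 13 tested hypoxia targets outside glycolysis, 5 rose and 3 fell in AE-PF against saline lungs, and 1 rose and 6 fell in ND-RHL against AE-PF lungs. Over all genes tested, the matching shares were 26.4%, 30.2%, 24.3% and 17.4%. Lox, the collagen crosslinking lysyl oxidase, changed by 2.47 (limma, adjusted p = 2.42e-05) and -2.29 (adjusted p = 0.000124) in these comparisons. Ndrg1, a stress-responsive gene, averaged 4.31 ± 0.822 FPKM in ND-RHL and 9.6 ± 1.19 FPKM in AE-PF lungs (SD, n = 4 each) and fell in ND-RHL against AE-PF lungs (adjusted p = 0.000149). P4ha1, a collagen prolyl hydroxylase subunit, changed by -1.25 in AE-PF against saline lungs (adjusted p = 1.02e-05).

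Of 14 genes for the entry of pyruvate into mitochondria, 1 rose and 4 fell in AE-PF against saline lungs, and 5 rose and 1 fell in ND-RHL against AE-PF lungs. All genes tested had shares of 26.4% and 30.2%, then 24.3% and 17.4%. The kinases that switch off pyruvate dehydrogenase split: Pdk3 rose by 0.50 in AE-PF against saline lungs (limma, adjusted p = 3.7e-05), and Pdk2 changed by -0.85 (adjusted p = 0.000118). Pdk2 rose by 0.85 in ND-RHL against AE-PF lungs (adjusted p = 0.000323), and Mpc2, a subunit of the mitochondrial pyruvate carrier, rose by 0.49 (adjusted p = 0.00176). Of 7 pentose phosphate genes, 3 rose and 1 fell in AE-PF against saline lungs. In ND-RHL against AE-PF lungs 1 rose and 2 fell. Pgd and Pgls, of the oxidative branch that makes NADPH, rose by 0.35 (adjusted p = 0.000479) and 0.41 (adjusted p = 0.00109) in AE-PF against saline lungs. Pgd changed by -0.26 (adjusted p = 0.00553) and Rpia by 0.49 (adjusted p = 0.011) in ND-RHL against AE-PF lungs.

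Of 4 tested gluconeogenesis genes, 1 rose and 0 fell in AE-PF against saline lungs, and 2 rose and 0 fell in ND-RHL against AE-PF lungs. Pck2 changed by 0.25 (limma, adjusted p = 0.00999) in the first of these comparisons, and Slc37a4 by 0.26 (adjusted p = 0.0431) in the second. Pck1 changed by 2.97 ± 1.1 (SE) in ND-RHL against AE-PF lungs (adjusted p = 0.0431), with levels of 16 ± 16.8 FPKM and 0.0815 ± 0.0726 FPKM (SD, n = 4 each). Adipocyte markers moved with it: 3 of 5 tested rose in that comparison, and the 6 summed to 20.1 to 722 FPKM in ND-RHL, 4.72 to 26.6 FPKM in AE-PF and 109 to 535 FPKM in saline lungs, and their part in Pck1 was not tested. Of 9 tested glycogen genes, 1 rose and 1 fell in AE-PF against saline lungs, and 2 rose and 1 fell in ND-RHL against AE-PF lungs. Pgm2 rose by 0.38 (adjusted p = 0.000379) and Pygb changed by -0.54 (adjusted p = 0.00931) in AE-PF against saline lungs.

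Markers of several cell types changed too, some in the direction of the glycolysis genes and some in the other. Over all genes tested, 26.4% rose and 30.2% fell in AE-PF against saline lungs. In ND-RHL against AE-PF lungs 24.3% rose and 17.4% fell. Of 12 monocyte and macrophage markers, 11 rose in AE-PF against saline lungs and 10 fell in ND-RHL against AE-PF lungs. Their sum, most of it Lyz2, was 4189 to 5787 FPKM in ND-RHL, 3221 to 5451 FPKM in AE-PF and 3736 to 4655 FPKM in saline lungs. All 9 cycling markers rose in AE-PF against saline lungs and 8 fell in ND-RHL against AE-PF lungs, with sums of 54.3 to 78.5 FPKM in ND-RHL, 73.9 to 103 FPKM in AE-PF and 37.9 to 39.8 FPKM in saline lungs. Of 7 fibroblast markers, 5 rose in AE-PF against saline lungs and 5 fell in ND-RHL against AE-PF lungs, with sums of 397 to 552 FPKM in ND-RHL, 1116 to 1935 FPKM in AE-PF and 357 to 427 FPKM in saline lungs. All 8 alveolar type 2 markers fell in AE-PF against saline lungs and rose in ND-RHL against AE-PF lungs. The 6 club and ciliated markers did the same. Of 7 alveolar type 1 markers, 4 fell and 1 rose in AE-PF against saline lungs. Of 10 neutrophil markers tested, 7 fell and 1 rose there, and of 6 red blood cell markers tested, 3 fell and 0 rose. In ND-RHL against AE-PF lungs, 4, 2 and 6 markers of these 3 lists rose and 0, 1 and 0 fell. Of 7 endothelial markers, 6 fell and 1 rose in AE-PF against saline lungs, with sums of 708 to 992 FPKM in ND-RHL, 419 to 613 FPKM in AE-PF and 873 to 1009 FPKM in saline lungs. Between ND-RHL and saline lungs, 9 of 12 macrophage markers and all 9 cycling markers rose. Of 7 fibroblast markers, 1 rose and 1 fell. Among neutrophil markers 3 fell, and among club and ciliated markers 2 fell. No alveolar type 2, alveolar type 1, endothelial or red blood cell marker passed. Over all genes tested, 13.3% rose and 8.65% fell in this comparison. Of the 11 glycolysis entries, 0 passed there. No marker of these lists was at 0 in every library. The part of these cell types in the glycolysis values was not tested.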

How the data were processed

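Unpooled FPKM values (fragments scaled to gene length and library total) of 12 libraries were deposited by the authors. Per the submitters' processing notes, which give no order, the tools were DESeq2 1.30.1, Subread 2.0.1 (featureCounts), STAR 2.7.9a, Trim Galore 0.6.6 and FastQC, with GRCm38/mm10. Groups came from the labels' titles. The 10 genes and the gene lists were chosen with earlier results of these data known.

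The 15164 genes that reached 1 FPKM in 4 or more libraries entered 1 fit of all 12 libraries to log2(FPKM + 1). It used limma 3.58.1 (R 4.3.3) with trended variance, 2-sided tests and Benjamini-Hochberg adjustment over these genes (threshold 0.05). This scale understates changes of low genes. Every adjusted p of a gene is from this fit unless an alternative is named. Whole fragments (tolerance 1e-05) were recovered from the FPKM of 35598 of 35599 genes. On these, limma-voom called 8522 genes for AE-PF minus saline, 6324 for ND-RHL minus AE-PF and 3334 for ND-RHL minus saline. The minor Aldoa entry had 7 to 23 fragments a library, where counting error is large.

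Ratios in 9 pairs of related genes, 8 of them with a gene outside the set, were compared by exact permutation tests over 70 labelings (scipy 1.17.1, 2-sided). Alternatives were another pseudocount (0.1), other filters, equal FPKM totals, quantile normalisation, limma-voom, array weights, a replicate block, and libraries left out.

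Deviations from the group means correlated by 0.40, 0.19, 0.11 and 0.17 between equally numbered ND-RHL and saline libraries. Unequal numbers were not compared and no label says what a number marks, so pairing is not shown. All members were named, with the genes they were paired with and, of each other list, the 2 with the smallest p in AE-PF minus saline and in ND-RHL minus AE-PF. Positions are those of GENCODE M21 (GRCm38), matched by identifier. No protein sequences were used here, and the gene closest in profile to Hk3 is not reported here.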

Additional observations from a re-analysis of the deposited data

Results flagged for a closer look

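Aldoa (ENSMUSG00000030695) stood far from the rest of its group in 2 libraries. ND-RHL library 4 had 271 FPKM, against 103 to 126 FPKM in the other 3 ND-RHL libraries, a gap of 0.862 of the group's range. AE-PF library 2 had 194 FPKM, against 119.6 to 122 FPKM in the other 3, a gap of 0.973. Both exceeded Dixon's 95% critical value. Of 33 groups of 4 values looked at, 2 exceeded it, and chance gives about 1 in 20. These are the 2 libraries with the highest skeletal muscle marker sums (2006 and 845 FPKM) and the highest squamous epithelium marker sums (6448 and 1945 FPKM), and the part of neither was tested.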

How the results depend on the processing

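The calls of Slc2a1, Hk3, Pgk1, Eno1, Pkm and Ldha in AE-PF against saline lungs held under every alternative that tested them, and no call of any member changed sign. For AE-PF minus saline the member count was 6, with 5 of 8 tested at an FPKM filter of 5, 7 with equal FPKM totals and 8 with array weights (7 higher and 1 lower). With 1 library left out it was 6 to 7. For ND-RHL minus AE-PF it was 6, with 4 with no filter, 5 at the filter of 5, and 3 to 7 with 1 library left out: 3 without ND-RHL library 3, 4 without ND-RHL library 2, AE-PF library 1 or AE-PF library 2, and 7 without ND-RHL library 4. For ND-RHL minus saline it was 0, with 1 under array weights, 1 without both muscle-rich libraries and 0 whichever single library was left out. The ratio tests passed 0 times under every alternative run, which says nothing of stability, since passing would have needed at least 16 of 27 tests at the smallest possible p with all libraries.

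Over all genes, 8578, 6332 and 3323 were called in AE-PF minus saline, ND-RHL minus AE-PF and ND-RHL minus saline. The filter of 5 tested fewer genes and called 5710 in the first of these. With 1 library left out, ND-RHL minus saline called 2008 to 3953, with 2083 without saline library 1 and 2008 without saline library 2. Higher calls were 46.7%, 58.2% and 60.5% of the calls, against 63%, 37.8% and 67.2% with equal FPKM totals, 46.9%, 46.1% and 42.2% with quantile normalisation, and 49.8%, 44.9% and 44% with limma-voom. Medians over all genes moved from -0.03 to 0.08 (AE-PF minus saline) and from 0.06 to -0.04 (ND-RHL minus AE-PF) with equal totals. The causes were not tested.

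With the replicate block, 6, 6 and 0 members and 8471, 6061 and 2916 genes were called, and no member's call changed. Correlations of equal numbers in the other groups were -0.18 to 0.07 (AE-PF with saline) and -0.39 to 0.34 (ND-RHL with AE-PF). Without a comparison with unequal numbers, they do not show whether numbers pair libraries. Depth limits Hk3 and the minor Aldoa entry most.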
